A study of Homo sapiens with 6 samples.

Results

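The CD3 chain genes CD3D, CD3E, CD3G and CD247 were examined in maps of open chromatin from Jurkat nuclei. Jurkat is an established line of human leukaemic T cells. All 4 genes were followed, of 20037 protein-coding genes measured in the same way. Peaks counted for a gene when they overlapped its RefSeq span, on build hg38, extended by 50 kb to each side. Merging the peaks of all libraries at an overlap of 1 bp or more gave 28 regions in these windows, of 69562 in the genome. The assay was ATAC-seq, in which a transposase places sequencing adapters into accessible DNA. Rotation about changing axes was used to simulate microgravity, and the comparison asks whether the accessible genome of the nuclei differed from that at normal gravity. The normal gravity group (NG 1 to NG 3) and the simulated microgravity group (SMG 1 to SMG 3) held 3 libraries each, and no genetic change or further agent is named for either. Nuclei from 50000 cells per library were lysed out for 3 min and tagged for 30 min at 37 °C. Isolated nuclei, rather than living cells, were turned at 30 degrees per second for 30 min in a random positioning machine in the microgravity group. The sources used here do not say whether turning and tagging ran together. Nothing in the labels places the libraries of a group in separate cultures, so a p-value here reflects only how far these libraries spread, and that spread may be technical.

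CD3 chains carry the signal of the T-cell receptor, whose own alpha and beta chains have almost no tail inside the cell. CD3E pairs with CD3D and with CD3G, and CD247, the zeta chain, pairs with itself. The tails hold tyrosine motifs, called ITAMs, that the kinase LCK phosphorylates and that the kinase ZAP70 then binds. CD3E, CD3D and CD3G are neighbours on chromosome 11, where CD3D and CD3G are read away from each other. T-cell enhancers have been described just beyond the far ends of CD3D and CD3E. CD247 is a much longer gene on chromosome 1.

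The bases just before the starts of CD3D and CD247 are shown because the open regions below cover them. They are 250 bases from RefSeq, build GRCh38.p14, read 5′ to 3′ on the minus strand, and end at the base before the gene start. The stretches are chr11:118342706-118342955 for CD3D and chr1:167518530-167518779 for CD247. Capitals mark the ETS core GGAA and the RUNX site TGTGGT, on either strand. No sequence was printed for CD3E and CD3G, as the promoter table used here has none under those names.
CD3D: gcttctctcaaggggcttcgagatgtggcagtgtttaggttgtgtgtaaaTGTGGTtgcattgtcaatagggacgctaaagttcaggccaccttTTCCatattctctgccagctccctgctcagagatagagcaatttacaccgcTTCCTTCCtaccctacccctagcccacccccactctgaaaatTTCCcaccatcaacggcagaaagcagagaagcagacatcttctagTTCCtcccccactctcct
CD247: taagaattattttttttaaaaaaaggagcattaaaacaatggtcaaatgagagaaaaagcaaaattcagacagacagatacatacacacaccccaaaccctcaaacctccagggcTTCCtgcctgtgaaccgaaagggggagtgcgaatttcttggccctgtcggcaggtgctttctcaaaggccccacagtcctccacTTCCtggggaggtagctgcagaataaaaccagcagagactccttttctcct
The CD3D stretch held 5 ETS cores, all as TTCC, and 1 RUNX site 200 to 195 bases before the start. The CD247 stretch held 2 ETS cores and no RUNX site. An ETS core is found in 92.5% of the 22078 promoters in the table at this length and a RUNX site in 9.37%. The E-box CANNTG, found in 58.1% of promoters, was present 2 times before CD247 and not before CD3D. The GATA letters AGATAA (7.10% of promoters), the SP1 letters GGGCGG (53.7%) and the TATA letters TATAAA (9.03%) were not in either stretch. Both strands were read for each motif, and no match of a motif shared bases with a match of another. Both stretches were poorer in G and C than the median promoter, at 50.4% for CD3D and 45.6% for CD247 against 62.0%.

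The peak lists held 37782 to 43713 peaks per library, with no read counts. Depth was therefore taken from the peak statistics. They give a genome-wide background pileup, the lowest background that the peak caller expected at a base, of 1.17 in NG 1 and 1.42 to 1.77 in the other 5 libraries. Strength of a peak was ranked within its own library as a percentile by −log10 q-value, where 100 is the strongest peak. Peak names of SMG 3 alone carry the word "normalized", a word the sources used here do not explain. The cell label was checked on marker genes: a peak at the gene start was present in all 6 libraries for 7 of 9 T-cell markers. Of these, 4 are the CD3 chain genes themselves, and the others were CD7, CD28 and LCK. CD5 had no start peak in any library, and CD2 had one in the 3 SMG libraries only. Among all protein-coding genes, 47.0% had a start peak in all 6 libraries. Such a peak was present for 1 of 6 B-cell markers (BLK), 0 of 6 myeloid, 1 of 5 NK-cell (NKG7) and 0 of 3 erythroid markers. A gene start here is the window within 1 kb of the start, or of both ends of the gene where the promoter table has no entry.

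All 4 CD3 chain genes were open at their starts in all 6 libraries, which was true of 47.0% of protein-coding genes. Of the 28 regions in their windows, 12 were held by all 6 libraries (24103 of 69562 genome-wide), 9 by 2 to 5 libraries and 7 by a single library. No region was present throughout 1 group and missing throughout the other, as 0.671% of regions genome-wide were. The windows held 18, 21 and 21 peaks in NG 1 to NG 3 and 16, 21 and 18 in SMG 1 to SMG 3. The totals of the groups overlapped. The 3 genes on chromosome 11 share most of these peaks, since 7 of their 10 regions lie in all 3 windows.

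Regions held by all libraries made up 7 of 10 on chromosome 11 and 5 of 18 around CD247, against 24103 of 69562 genome-wide. The windows of CD3G, CD3D and CD3E had 6.32, 5.78 and 5.38 such regions per 100 kb, against a median of 1.51 over all protein-coding genes. Only 1.74%, 2.59% and 3.53% of genes had a denser window. The CD247 window, with 2.66 per 100 kb, was exceeded by 25.96% of genes. By the number of peaks, however, the longer CD247 window was exceeded by 1.95% of genes and those of CD3G, CD3E and CD3D by 8.14%, 10.2% and 12.9%. The remaining CD247 regions were weak, with a median of their mean percentiles of 22.1, against 70.7 for the 5 held by all.

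**Figure D1:**
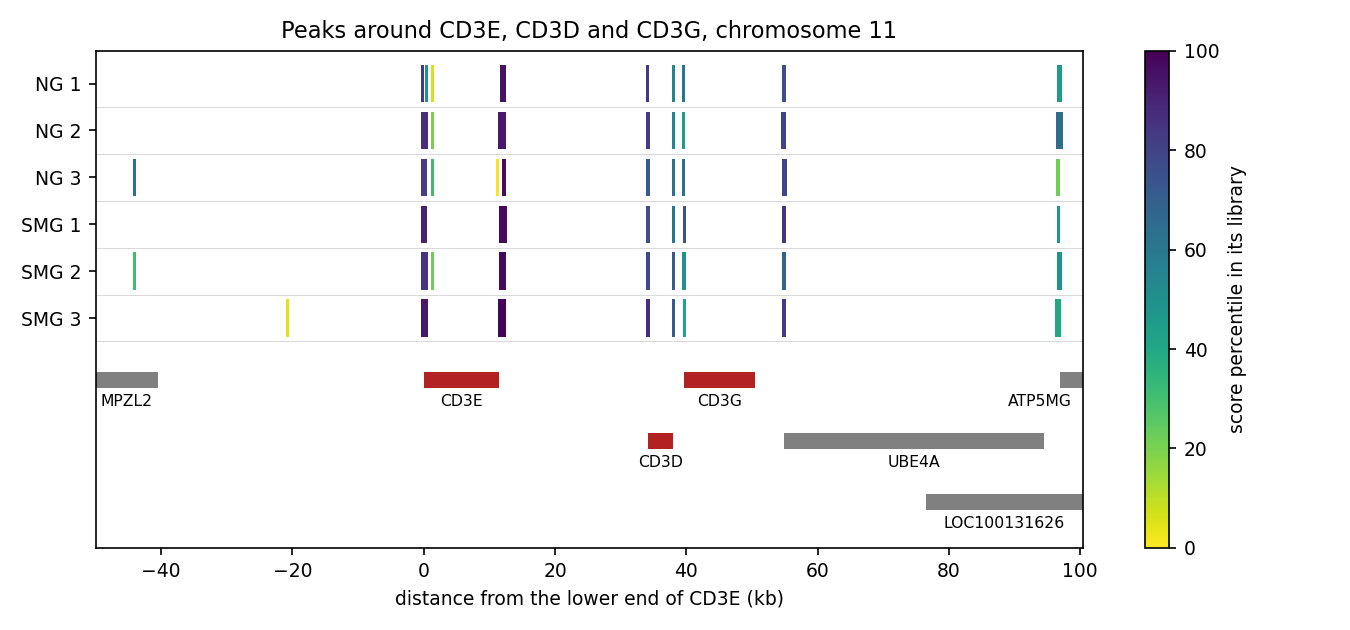
Peaks of each library (rows) around CD3E, CD3D and CD3G, with distance from the lower end of CD3E in kb on the horizontal axis. Each bar is a peak at its true width, with a minimum drawn width, coloured by score percentile, and gene spans are below. Strong peaks flank CD3E in all 6 libraries, and a compact group of 3 weaker ones marks the ends of CD3D and the start of CD3G.

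CD3E, whose product is shared by both CD3 pairs, carried the strongest peak of the family, at its far end, and on average the strongest gene-start peak. At its start, in chr11:118304267-118305414, the percentile was 83.6, 86.6 and 81.5 in NG 1 to NG 3 and 90.6, 84.9 and 94.0 in SMG 1 to SMG 3. SMG 1 and SMG 3 lay above every normal gravity library and SMG 2 did not, so the groups overlapped (exact permutation test, two-sided, p = 0.2, n = 3 and 3). The peak summit, its highest point, had a median position 35 bases before the start.

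The peak at the far end of CD3E, in chr11:118315694-118317383, was the strongest of all in the windows. Its percentile was 95.6, 93.6 and 96.7 in NG 1 to NG 3 and 97.9, 97.5 and 99.02 in SMG 1 to SMG 3. Every microgravity library lay above every normal gravity library, and SMG 3 was the highest. The means were 95.3 ± 1.60 and 98.1 ± 0.781 (SD, n = 3 and 3), a difference of 2.85 percentile points. An exact permutation test, two-sided, gave p = 0.1, the smallest that 3 against 3 libraries allow, and 0.962 after Benjamini-Hochberg adjustment over 24103 regions held by all libraries. This was 1 of the 12 such regions in the windows, against 5.34% genome-wide with microgravity higher and 5.06% with normal gravity higher. None of the 12 was higher in normal gravity. Its summit lay 676 bases beyond the gene and moved by only 23 bases among libraries, and 4.73% of regions held by all libraries had a higher mean percentile. In the comparison over all gene starts the better of both CD3E ends was used, so this far-end peak was also its value there. It was the single member of 4 without overlap between groups, against 2.34% of genes with microgravity higher and 3.53% with normal gravity higher, and its adjusted p was 1 by the exact permutation test. With only the lower-coordinate end, which holds the start, the difference was 5.97 points and the groups overlapped (exact permutation test, p = 0.2). Without SMG 3 it was 3.88 points.

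The deposited fold and p-value of a peak together fix the fragments stacked at its summit. At the far end of CD3E these were 55, 76 and 78 in NG 1 to NG 3 and 88, 97 and 110 in SMG 1 to SMG 3. Divided by the background of each library, the summit height was 47.0, 42.9 and 55.0 against 55.3, 56.2 and 69.0 times background. The lowest microgravity height, 55.3, barely passed the highest normal gravity height, 55.0. At the start of CD3E the heights were 25.6, 28.8 and 28.2 in NG 1 to NG 3 and 32.7, 29.5 and 42.7 in SMG 1 to SMG 3. By height, again no microgravity library fell within the normal gravity range. The fragments stacked at this summit were 30, 51 and 40 in NG 1 to NG 3 and 52, 51 and 68 in SMG 1 to SMG 3. NG 2 and SMG 2 were equal at 51, so only the division by background set their heights apart. The differences in mean height were 11.9 at the far end and 7.42 at the start, each with p = 0.1 and an adjusted p of 0.923 (exact permutation test, two-sided, n = 3 and 3). Without SMG 3 they were 7.43 and 3.56, so both differences shrank by more than 1.5 times. Over all regions with a height in each library, the groups did not overlap in 3.68% with microgravity higher and in 7.14% with normal gravity higher. CD3E gave both of the 2 regions without overlap among the 12 in the windows. Weaker peaks inside CD3E, in chr11:118305796-118306086, were found in NG 1, NG 2, NG 3 and SMG 2.

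**Figure D2:**
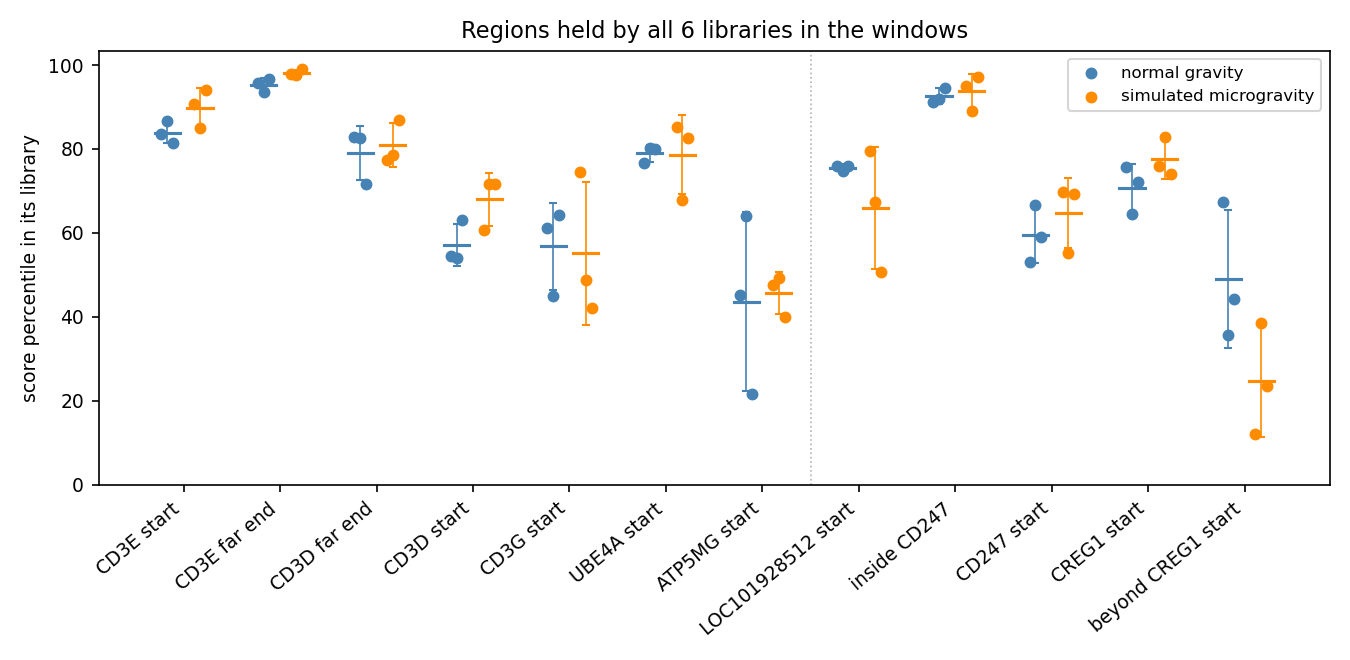
Score percentile of the best peak in each library for the 12 regions held by all libraries, in genome order, with points for libraries by group a line for each group mean and a bar of 1 SD to each side (n = 3). At the far end of CD3E the SMG points lie above all NG points; in every other region the points of the groups intermix.

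A bare stretch of 21.2 kb with no peak in any library followed the far end of CD3E, before the far end of CD3D. CD3D, which pairs with CD3E, had a peak at each end. The far-end peak, in chr11:118338569-118339216, had percentiles of 82.8, 82.6 and 71.6 in NG 1 to NG 3 and 77.3, 78.5 and 86.9 in SMG 1 to SMG 3. SMG 3 lay above every normal gravity library, NG 3 lay below every microgravity library, and the other libraries overlapped (exact permutation test, two-sided, p = 0.8, n = 3 and 3). Peaks there were 492 to 648 bases wide, and the median summit lay 195.5 bases beyond the gene end.

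The CD3D start peak, in chr11:118342562-118343033, covered 187 to 250 of the 250 bases printed above. Its percentile was 54.4, 54.0 and 63.0 in NG 1 to NG 3 and 60.8, 71.7 and 71.6 in SMG 1 to SMG 3. SMG 2 and SMG 3 lay above all normal gravity libraries, and SMG 1 lay inside their range. The means were 57.1 ± 5.07 and 68.0 ± 6.29 (SD, n = 3 and 3), a difference of 10.9 points with p = 0.2 (exact permutation test, two-sided) and an adjusted p of 1 over all genes. Summits lay 37 to 50 bases before the start in NG 2, NG 3, SMG 1 and SMG 2, between the ETS cores that begin at 63 and 18 bases before it. In NG 1 and SMG 3 they lay 176 and 189 bases before the start, between the RUNX site and the ETS core that begins at 156 bases.

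CD3G, the other partner of CD3E, starts close to the CD3D start and is read away from it. The peak at its start, in chr11:118344009-118344660, had percentiles of 61.2, 45.0 and 64.3 in NG 1 to NG 3 and 74.5, 48.8 and 42.2 in SMG 1 to SMG 3. The microgravity group held both the highest and the lowest library. The means were 56.8 ± 10.3 and 55.2 ± 17.1 (SD, n = 3 and 3), with p = 0.9 by a two-sided exact permutation test. The rest of CD3G was closed: no peak was called in any library over the 14.5 kb from the start region to the peak at the start of UBE4A, a ubiquitin ligase gene.

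Ranking by q-value and by height ordered these peaks differently. The CD3D start had a mean height of 27.3 times background, exceeded by 27.3% of regions held by all libraries, whereas 58.8% exceeded it by percentile. For the CD3G start, with a mean height of 21.8, the shares were 39.3% and 68.5%. The CD3D far end, at 32.8, was exceeded by 19.4% by height and 31.5% by percentile. Around these peaks the local background, against which a q-value is computed, was 6.09 times the genome-wide background at the CD3D start, 4.97 times at its far end and 4.61 times at the CD3G start. The median over all regions held by all libraries was 2.05, and 3.24% had more than the CD3D start. The neighbouring UBE4A start had a local background of 1.60 times, and there 44.2% of regions were higher by height and 33.3% by percentile. Its mean height, 20.1, was below that of the CD3D start, while its mean deposited fold, 9.18, was above the 4.13 of CD3D. Strength of the CD3D and CD3G start peaks against other genes therefore depends on which of these measures is read.

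**Figure D3:**
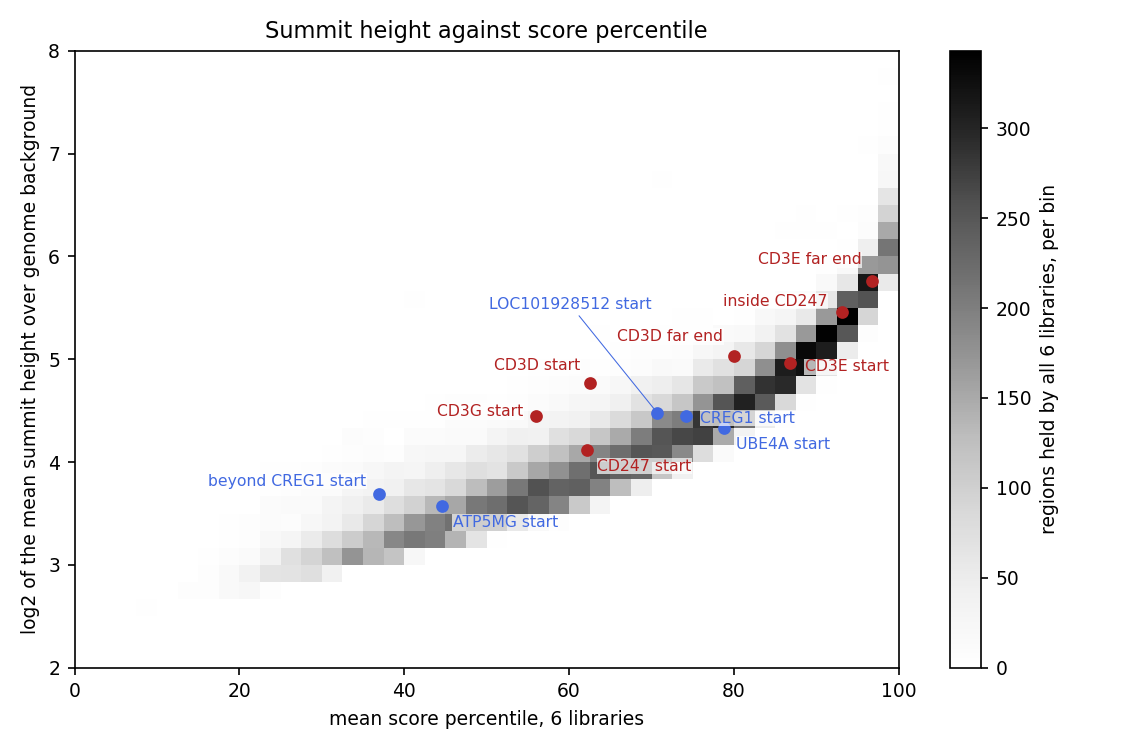
Mean summit height over genome-wide background, on a log2 axis, against mean score percentile for all regions held by the 6 libraries (grey bins, shaded by number of regions) and the 12 in the windows (points). The starts of CD3D and CD3G and the far end of CD3D lie above the bulk of the bins, at a greater height than most regions of their percentile.

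CD247, the zeta chain, spans 87890 bases and was read differently by the libraries at its start. Between 1 and 3 peaks per library covered chr1:167516801-167518789. The best of them had percentiles of 53.0, 66.6 and 59.1 in NG 1 to NG 3 and 69.7, 55.1 and 69.3 in SMG 1 to SMG 3. The groups overlapped, with means of 59.6 ± 6.84 and 64.7 ± 8.33 (SD, n = 3 and 3; exact permutation test, two-sided, p = 0.5). Summits of these best peaks were spread over 1437 bases, more than in 99.9% of regions held by all libraries, where the median spread was 179 bases. Part of this spread comes from the choice among separate peaks. In NG 1 the peaks at percentiles 53.0 and 52.5 had summits at chr1:167517180 and chr1:167518605. A peak touched the 250 bases printed above in every library, covering 141 bases in NG 3 and 219 to 250 in the others. The percentile of that peak was 52.5, 66.6 and 30.0 in NG 1 to NG 3 and 62.5, 55.1 and 69.3 in SMG 1 to SMG 3. NG 3 was the lowest and SMG 3 the highest, and the groups overlapped (exact permutation test, p = 0.4). Its summit lay 69 to 122 bases before the start in NG 1, NG 2, SMG 1 and SMG 2, and inside the gene in NG 3 and SMG 3.

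The strongest peak of the CD247 window lay inside the gene, in chr1:167473860-167474791, with its summit 44.2 kb from the start. It also lies within the span of LOC101928512, a long noncoding RNA gene. The gene table used here gives spans and no exons, so exon and intron could not be told apart. Its percentile was 91.1, 92.0 and 94.6 in NG 1 to NG 3 and 95.02, 89.0 and 97.2 in SMG 1 to SMG 3. SMG 1 and SMG 3 lay above every normal gravity library and SMG 2 below all of them (exact permutation test, two-sided, p = 0.7, n = 3 and 3). Unlike the start, its summit was fixed within 33 bases. The summit height, 44.0 times background on average, was above the 17.4 of the CD247 start. A further merged region inside CD247, chr1:167455023-167456663, spans starts of LOC101928512. The best peaks of NG 1, NG 3 and SMG 1 in this region reached none of those starts. The region had percentiles of 76.0, 74.7 and 76.0 in NG 1 to NG 3 and 79.5, 67.5 and 50.7 in SMG 1 to SMG 3. SMG 3 was low here, although it was the highest library at the peak 44.2 kb inside the gene, and the groups overlapped (exact permutation test, two-sided, p = 0.4).

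**Figure D4:**
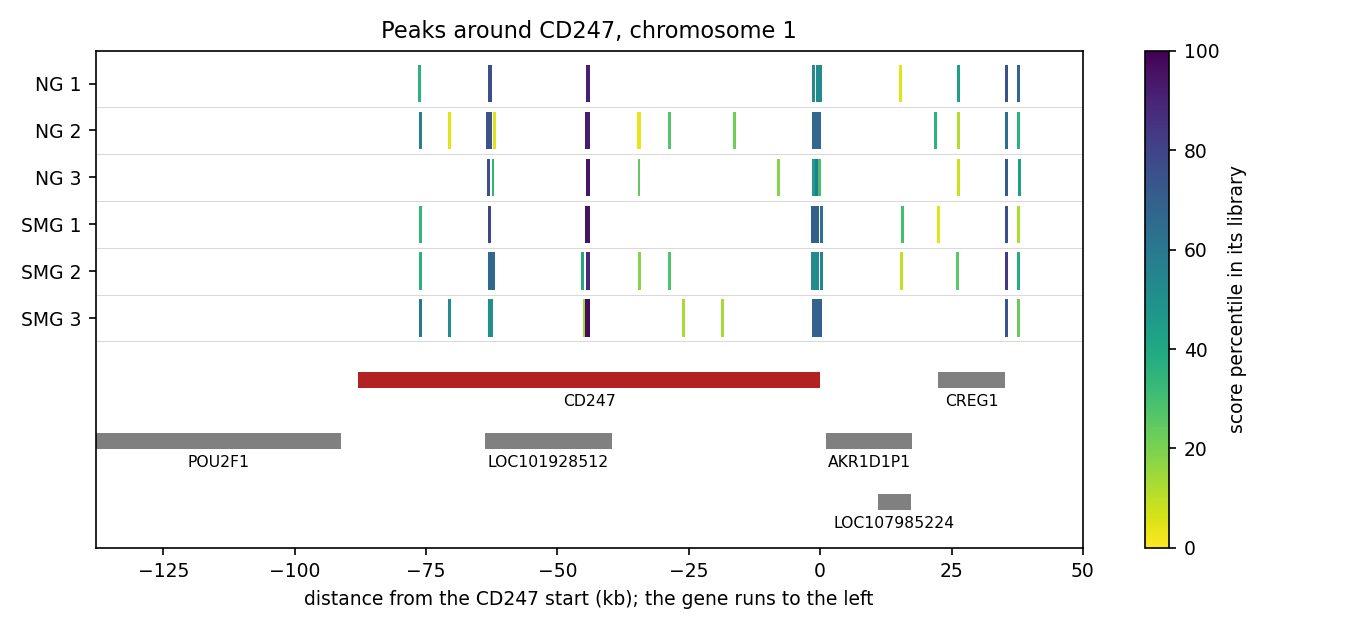
Peaks of each library (rows) around CD247, with distance from its start in kb on the horizontal axis and the gene running to the left. Bars are peaks coloured by score percentile, with gene spans below. The peak 44.2 kb inside the gene is the darkest in all 6 libraries, and most of the paler bars inside the gene recur in fewer libraries.

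The flank before CD247 also held an open gene start. CREG1, a secreted glycoprotein gene, had a start peak there in all 6 libraries, at a mean percentile of 74.1. On the other side only the far end of POU2F1, an octamer-binding transcription factor gene, reaches the window. Its start, outside the window, had a peak in all 6 libraries at a mean percentile of 92.9. A weaker region beyond the CREG1 start, chr1:167555966-167556372, had percentiles of 67.5, 35.6 and 44.2 in NG 1 to NG 3 and 12.1, 38.6 and 23.4 in SMG 1 to SMG 3. SMG 2 lay above NG 2, so the groups overlapped there too. Ranked by fold in place of q-value, they did not: the percentiles were 61.3, 28.4 and 32.9 in NG 1 to NG 3 and 4.77, 25.2 and 14.5 in SMG 1 to SMG 3 (exact permutation test, two-sided, p = 0.1). That ranking was added after the data were seen, and no share of all regions without overlap by fold is available here. By q-value percentile that share was 5.06% with normal gravity higher. By summit height the groups overlapped in this region. On chromosome 11, UBE4A at 78.8 and ATP5MG, a subunit gene of mitochondrial ATP synthase, at 44.6 were open at their starts in all 6 libraries. MPZL2, an adhesion gene read by both ends, had a peak at its lower-coordinate end in 5 libraries. That end lies outside the windows, and no library had a peak within 1 kb of its other end.

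In the order of mean percentile of gene-start peaks, CD3E stood at 96.7, by its far end, followed by CD3D at 62.6, CD247 at 62.1 and CD3G at 56.0. Of all protein-coding genes, 4.62%, 36.7%, 37.0% and 39.9% were higher. By percentile the lowest CD3E library, even at its start alone (81.5), was above the highest of the other 3 genes (74.5, CD3G in SMG 1). CD3D, CD247 and CD3G overlapped each other from library to library. By summit height the separation of the CD3E start did not hold. In SMG 2 the CD3D start reached 30.7 times background and the CD3E start 29.5. In every other library the CD3E start was higher than the CD3D start. The genes whose start percentiles were most like a member over the 6 libraries were LOC124903173 and PMAIP1 for CD3D, with mean absolute differences of 2.69 and 3.24 points. For CD3E, matched by its far-end peak and not by its start, they were NARS1 and TCP1 (0.596 and 0.660). They were BEX1 and STON2 for CD3G (3.38 and 4.26) and CNTLN and EFR3B for CD247 (2.19 and 2.498).

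The number of peaks within 50 kb was lower on average under simulated microgravity for each gene, by less than the tests could separate, and not under every setting. CD3D had 8, 7 and 8 peaks in NG 1 to NG 3 and 6, 7 and 6 in SMG 1 to SMG 3, and CD3G had 9, 8 and 9 against 7, 8 and 7. In both, the value of NG 2 equalled that of SMG 2, so the groups touched (exact permutation test, two-sided, p = 0.2 for each). CD3E had 8, 7 and 9 against 6, 8 and 7 peaks (p = 0.5) and CD247 had 9, 13 and 11 against 9, 12 and 10 (p = 0.8, exact permutation tests). None of the 4 genes had groups that did not overlap, which 2.69% of protein-coding genes had, and all adjusted p-values were 1. The 3 neighbouring genes share peaks, so their 3 lower counts are not separate observations. Part of the higher NG counts there came from split calls. NG 1 had a further, weaker peak in the CD3E start region, and NG 3 had one in the far-end region. The bases covered by peaks in the CD3D window were 3787, 4715 and 4291 in NG 1 to NG 3 and 4181, 4753 and 4229 in SMG 1 to SMG 3. In each of the 4 windows the covered bases of the groups overlapped. Within 10 kb, CD3D had 3.0 and CD3G 4.0 peaks on average in both groups, a difference of 0.0. CD3E had 3.67 in NG and 2.33 in SMG, a difference of -1.33 (exact permutation test, two-sided, p = 0.2), and CD247 had 7.33 and 7.0. With 37782 peaks kept in every library, CD247 had 9.67 in both groups.

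Partners of the CD3 chains in receptor signalling were read from a list of 32 genes, of which 29 were matched. A start peak was present in all 6 libraries for 19, in some libraries for 5 and in none for 5 (PTPRC, SYK, PLCG1, CD5 and SIT1). Among all protein-coding genes 39.96% had none and could not differ. LCK, the kinase that phosphorylates the CD3 tails, had percentiles of 91.4 to 93.6 in NG and 91.7 to 93.8 in SMG. ZAP70, the kinase that binds them, ranged from 53.8 to 75.7 in NG and from 52.8 to 84.4 in SMG. LAT, the adaptor that ZAP70 phosphorylates, ranged from 61.04 to 84.3 and from 68.8 to 79.7. In all 3 the groups overlapped. Microgravity was higher without overlap in 4 of the 29 (CD2, CD8A, GRAP2 and SLA2), against 2.34% of all genes, and normal gravity in 0, against 3.53%, with every adjusted p at 1 (exact permutation test). The median difference over the 29 was 0.0, as over all genes. CD8A, a co-receptor, had 86.3, 87.4 and 84.1 in NG 1 to NG 3 and 93.7, 89.6 and 94.4 in SMG 1 to SMG 3. CD2, an adhesion receptor, had no start peak in the NG libraries and percentiles of 43.7, 26.8 and 31.2 in SMG 1 to SMG 3.

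**Figure D5:**
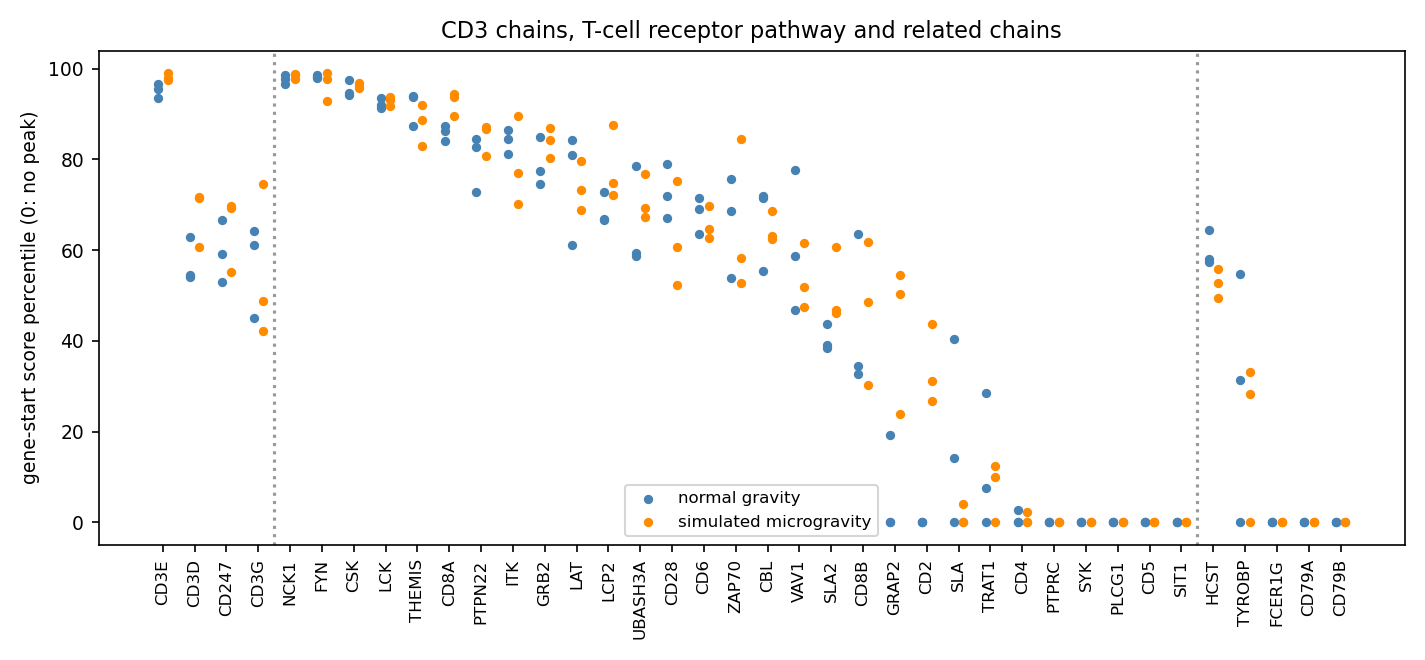
Percentile of the start peak in each library for the CD3 chain genes (left), the matched genes of the receptor signalling list (middle) and genes of related chains (right), with 0 where no peak was called and points by group. CD3E, plotted by its far-end peak, lies near the top with LCK, FYN, CSK and NCK1. The region at the CD3E start alone had a mean of 86.9. CD3D (62.6), CD247 (62.1) and CD3G (56.0) lie below 74.7, the median of the 19 signalling genes open in all libraries.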

How the data were processed

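ATAC-seq peaks were analysed for 3 normal gravity and 3 simulated microgravity libraries. The authors deposited a headerless list of peaks for each library, in 10 columns. The submitters' processing notes name MACS2, BWA, Bowtie, SAMtools, FastQC and the build hg38. For versions, settings, duplicate handling and any read shift, the sources used here give nothing. The deposited score equals 10 times the −log10 q-value for 99.955 to 100% of peaks. The deposited fold is the summit over local background, a ratio, and the deposited −log10 p and −log10 q values are the peak caller's. Scores rise with depth, so they were ranked within a library.

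Summit pileups were solved from the fold and −log10 p with MACS2's formulas (tolerance 0.001), for 99.987 to 99.993% of peaks. No read counts were used, so the precision of a single peak is limited by these pileups. Gene starts came from a RefSeq promoter table for 15843 genes, and otherwise both gene ends were used (CD3E and CD3G among them). A library without a peak in a window counted as 0. Group means were compared by two-sided exact permutation over the 20 labelings of 6 libraries, with Benjamini-Hochberg adjustment over all genes or regions, and were tested on simulated data first. "Without overlap" means that all values of 1 group exceed all of the other. Named were all members, regions held by all libraries in or within 10 kb of a gene, each window's strongest region, neighbouring genes and the 2 genes most like each member. Other regions were chosen after their values were seen. Members, lists and tests were chosen with earlier results of these data known. Python 3.11.15, NumPy 2.4.6, pandas 2.3.3, SciPy 1.17.1 and Matplotlib 3.10.9 were used.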

Additional observations from a re-analysis of the deposited data

How the results depend on the processing

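With 3 libraries a group no test could pass 0.05, so only direction and size are followed. Alternatives were a 10 kb flank, a stricter overlap (at least 50% of a peak inside the window), a 500 bp start window, scores of at least 20, 37782 peaks per library, percentiles by fold, CD3E by its lower end and each library left out. None of the 21 alternatives for start percentiles and 20 for peak counts that kept all libraries reversed a difference, but some removed or resized it. Both totals also count a replicate block, which compared libraries by replicate number. The block leaves the difference in means unchanged by construction and could not reverse it. With the 10 kb flank, differences in peak counts were 0.0 for CD3D and CD3G, -1.33 for CD3E and -0.333 for CD247. With equal numbers of peaks the difference for CD247 was 0.0. The CD247 start difference was 15.01 points with the 500 bp window. By fold, start differences were 6.33 (CD3D), 3.71 (CD3E), -7.62 (CD3G) and 2.22 (CD247) points. Leaving out 1 library gave differences in peak counts of -1.67 to -1.17 for CD3D and CD3G, -1.5 to -0.5 for CD3E and -1.67 to 0.333 for CD247. Start percentiles gave 9.04 to 14.5 (CD3D), 1.98 to 3.56 (CD3E), -11.3 to 4.83 (CD3G) and 1.85 to 9.95 (CD247). Regions were recomputed by choices made after seeing the data. By fold, the peak inside CD247 had -1.03 and the CD3D far end -2.99 points, and the groups no longer overlapped beyond the CREG1 start (-26.04). The share of all regions without overlap by fold is not available for comparison. Leaving out 1 library, differences changed sign inside CD247 (-0.556 to 3.53), at the CD3D far end (-1.83 to 3.76) and at the UBE4A (-3.72 to 5.01) and ATP5MG starts (-9.06 to 12.1). For heights they did so at the CD3D far end (-1.75 to 5.46), UBE4A (-0.83 to 2.66), ATP5MG (-1.70 to 0.709) and inside CD247 (-0.869 to 8.53). The cause was not tested. The labels do not say whether libraries with the same replicate number were prepared together. Correlations between the groups were -0.0158 to 4.59e-05 for same-numbered libraries and -0.0152 to 0.0238 for other pairs. Such values cannot tell how the libraries were prepared. With the replicate block the CD3D start difference was 10.9 points (p = 0.25, exact sign flips, the smallest they allow). Overlap between groups does not depend on the block, so no call could change.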

Other observations

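Of 5 genes of related signalling chains, 3 had no start peak in any library, as 39.96% of all protein-coding genes did. These were FCER1G, CD79A and CD79B, which carry the signal of Fc and B-cell receptors. HCST, the adaptor DAP10, had one in all 6, at percentiles of 64.3, 57.4 and 58.2 in NG 1 to NG 3 and 52.8, 49.4 and 55.8 in SMG 1 to SMG 3. Every NG library of HCST lay above every SMG library, as in 3.53% of all genes, with an adjusted p of 1 (exact permutation test, p = 0.1). TYROBP, the adaptor DAP12 and the neighbour of HCST, had a start peak in 4 libraries, NG 2, NG 3, SMG 1 and SMG 2.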
